A study of Mus musculus with 4 samples.

Results

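Circadian clock genes were examined in muscle stem cells (MuSCs, also called satellite cells) from sham-operated and overloaded plantaris muscle. The genes were chosen by name as 10 core or closely coupled components of the mammalian clock, namely Arntl, Clock, Per1, Per2, Per3, Cry1, Cry2, Nr1d1, Nr1d2 and Dbp. All 10 had a row among the 19353 genes of the count table. The cells carried Pax7-CreERT2 and Rosa-YFP, so that tamoxifen switched on yellow fluorescent protein (YFP) in cells that expressed Pax7, and the label also passed to their descendants. Overload was induced by cutting the tendons of the gastrocnemius and soleus muscles, the sham group had skin incisions alone, and the study analysed MuSCs 4 days after tenotomy. Cells were sorted by YFP, 100 to a tube, and each group had 2 libraries. That the 2 tubes within each group were filled from separate mice is not stated in the sources used here, so the p-values measure the spread between these libraries, which may be technical. Mice were housed under equal periods of light and dark, but the sources used here give neither the hour at which cells of each library were collected nor the age of the mice.

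The clock is a loop of transcription and repression that runs in most cells. CLOCK and BMAL1 (the product of Arntl) bind E-box motifs as a pair and switch on the Period and Cryptochrome genes, whose proteins return to the nucleus and block the pair. In a second loop, the nuclear receptors REV-ERB alpha and beta (Nr1d1 and Nr1d2) repress Arntl, whereas ROR receptors activate it through the same response elements, and in skeletal muscle the clock is known to time metabolic and myogenic genes. Dbp encodes a transcription factor that acts on D-box motifs and is one of the strongest outputs of the clock in many tissues.

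Libraries were made by CEL-Seq2, which reads the 3′ end of each polyadenylated RNA and tags every captured molecule with a short random sequence (unique molecular identifier, UMI). A UMI therefore counts 1 captured 3′ end, and levels were compared between genes without dividing by length. In total 269683 and 260488 UMIs were counted in sham, and 387955 and 483528 after overload. The 10 clock genes took 289 and 297 UMIs in the sham libraries and 296 and 408 in the overloaded libraries. Per 100000 UMIs of the library this was 107 and 114 in sham against 76.3 and 84.4 after overload. Levels are given as TMM-normalized counts per 1000000 (CPM), and on that scale a count of 3 corresponded to 13.6 CPM in the smallest library and to 6.08 in the largest. Markers of MuSCs were present in every library, with Pax7 at 118, 107, 108 and 137 UMIs and Myf5 at 244, 168, 388 and 467, in the order sham 1, sham 2, overloaded 1 and overloaded 2. In normalized values 5 of 10 MuSC markers were lower at an adjusted p of 0.1 and 2 were higher, beside 26.3% and 25.8% of all genes tested. The same order is kept for every list of 4 values below.

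Promoter sequences of the RefSeq annotation (build GRCm38.p6, 250 bases before to 50 after the annotated start) were found for 9 of the 10 genes, in 13 windows. They were searched on both strands for the E-box CACGTG, its variant CACGTT, the D-box TTATGNAA and the nuclear receptor half-site AGGTCA, which is the core of the element shared by REV-ERB and ROR proteins. Of all 32851 promoter windows, 7.15% held the E-box, 4.68% the variant, 3.38% the D-box and 16.3% the half-site. The cAMP response element TGACGTCA was searched as well. It was held by 1.79% of all windows and by no window of a clock gene. No match in a clock gene overlapped another, and each match is a description of the letters, not of a bound site. The sequences below are shown because they hold the matches of 5 genes described in detail afterwards. They are written 5′ to 3′ on the strand of the gene, with the matched letters in capitals.
Per1, E-box and half-site on the other strand, chr11:69098759-69098838, plus strand: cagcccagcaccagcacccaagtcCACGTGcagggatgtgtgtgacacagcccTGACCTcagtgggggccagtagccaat
Per1, D-box, chr11:69098899-69098947, plus strand: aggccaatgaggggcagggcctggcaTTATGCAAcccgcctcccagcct
Per3, D-boxes, chr4:151044806-151044885, minus strand: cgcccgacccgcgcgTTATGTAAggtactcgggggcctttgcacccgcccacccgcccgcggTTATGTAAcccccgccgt
Cry1, E-box variant on the other strand and E-box, chr10:85185065-85185154, minus strand: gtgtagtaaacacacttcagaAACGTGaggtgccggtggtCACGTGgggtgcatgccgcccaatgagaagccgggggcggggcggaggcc
Nr1d1, E-box variant on the other strand, chr11:98775378-98775457, minus strand: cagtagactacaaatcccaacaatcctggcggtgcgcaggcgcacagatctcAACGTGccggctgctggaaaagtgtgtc
Arntl, half-site within the first exon, chr7:113207531-113207560, plus strand: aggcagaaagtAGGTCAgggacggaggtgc

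**Figure D1:**
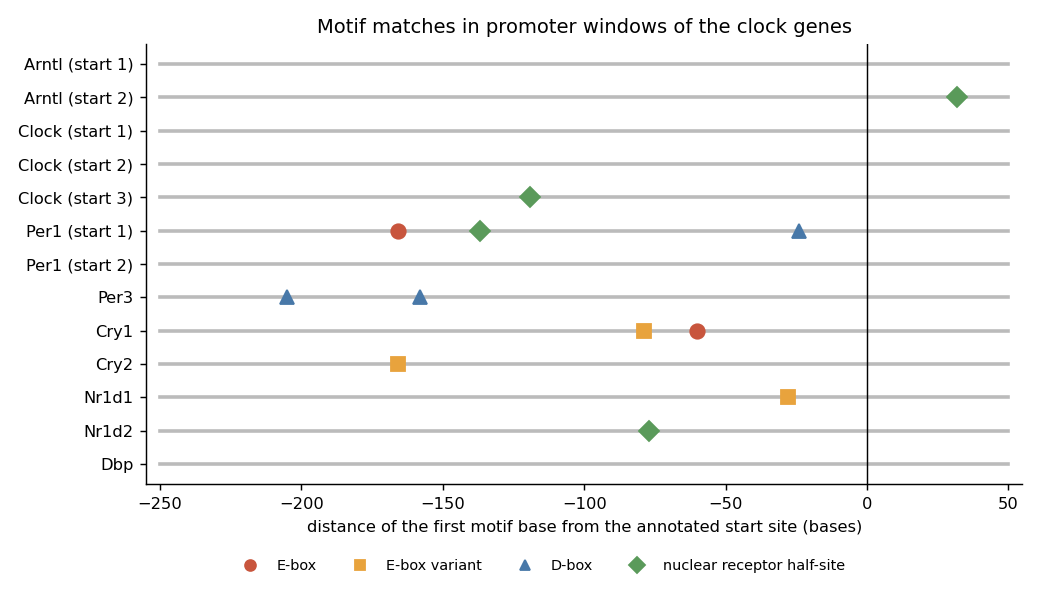
Motif matches in the 13 promoter windows of 9 clock genes, with the distance of the first motif base from the annotated start site (bases) on the x axis and 1 line per annotated start. Per1 held an E-box at -166 and a D-box at -24, Per3 held D-boxes at -205 and -158, and the half-site of Arntl lay at 32 bases after its second annotated start.

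The E-box of Per1 lay at -166 and that of Cry1 at -60, counted in bases from the start, and Per3 held D-boxes at 2 places. Cry2 held the E-box variant at -166, Nr1d2 a half-site at -77, and the third start of Clock a half-site at -119. In the window of Dbp none of the motifs searched was found, which says only that these letters are not in that window.

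To ask whether clock genes differed between MuSCs of overloaded and sham-operated muscle, the counts of all genes were fitted together, and the rows of the clock genes were read from that fit. Relative to the other transcripts of each library, 5 clock genes were lower after overload (Arntl, Clock, Per1, Cry1 and Cry2) and 1 was higher (Per3). Of these, Cry2 and Per3 passed the filter on low counts only through the group where they were high, so that their calls are weak support. Another 3 did not pass the threshold (Per2, Nr1d1 and Nr1d2), and Dbp had too few counts to be tested. The log2 fold change (log2FC, overloaded over sham), its standard error (SE) and p came from the quasi-likelihood test of edgeR on 7228 genes, with TMM library scaling, Benjamini-Hochberg adjustment and a threshold of 0.1. Of all genes tested, 52.1% passed this threshold, 25.8% higher and 26.3% lower, so that calls were common in the whole table and 6 called clock genes of 9 is near that share. The median log2 fold change of the 9 tested clock genes was -0.92, beside a median of 0.051 over all genes tested. In 8 of the 9 the normalized levels of the groups did not overlap, beside 72.9% of all genes tested. Because each tube was a bulk of 100 cells, fewer cells that expressed a gene and less of its RNA per cell cannot be told apart.

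**Figure D2:**
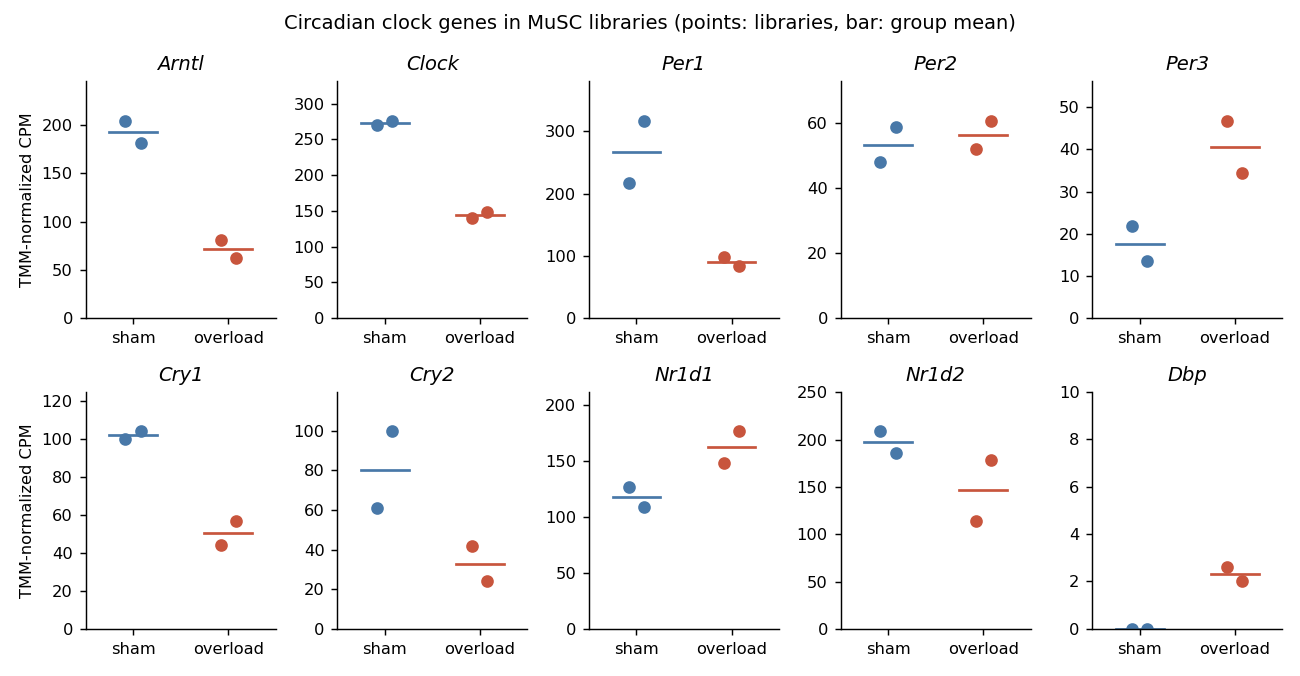
Level of each clock gene in each library, with TMM-normalized CPM on the y axis (linear, from 0, a separate range per gene) the group on the x axis, points for libraries and bars for the means of 2. Arntl, Clock, Per1, Cry1, Cry2 and Nr1d2 lie lower in both overloaded libraries, Per3 and Nr1d1 lie higher, Per2 overlaps, and Dbp stays at or under 2.6.

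The positive arm was lower after overload. Arntl (ENSMUSG00000055116, chromosome 7 of GRCm38 from 113207465 to 113314126, plus strand) was counted 47, 40, 31 and 31 times. Both overloaded libraries held fewer Arntl UMIs than both sham libraries, although they held more UMIs in total. Its normalized level went from 193 ± 16.5 to 71.7 ± 12.6 CPM (SD, n = 2 each), with log2FC = -1.44 (SE 0.25, edgeR adjusted p = 2.1e-04). With each library left out in turn it stayed between -1.59 and -1.21. Clock (ENSMUSG00000029238, chromosome 5 from 76209868 to 76304792, minus strand), which encodes the partner of BMAL1, was counted 62, 61, 54 and 73 times. Its UMIs overlapped between the groups, whereas its normalized levels did not, at 273 ± 4.57 CPM in sham and 144 ± 5.25 after overload (SD, n = 2 each). For Clock the log2FC was -0.92 (SE 0.19, edgeR adjusted p = 0.0011). Per tube of 100 cells, without any scaling, Clock had a log2 fold change of 0.046 and Arntl of -0.49, neither past the threshold (adjusted p = 0.89 and 0.22). Values per tube, here and below, also hold differences in capture and sequencing depth between libraries, so they are not RNA per cell. Their median over all genes tested was 1.01.

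Among the Period genes, which encode repressors of the CLOCK and BMAL1 pair, Per1 and Per3 went opposite ways. Per1 (ENSMUSG00000020893, chromosome 11 from 69095217 to 69109960, plus strand), which is also induced acutely by hormones and stress, was counted 50, 70, 38 and 41 times. As with Arntl, both overloaded libraries lay below both sham libraries in UMIs, which held for 7.90% of all genes tested and for these 2 of the 9 clock genes. The normalized level of Per1 went from 267 ± 70.3 to 90.9 ± 11.2 CPM (SD, n = 2 each), with log2FC = -1.56 (SE 0.24, edgeR adjusted p = 6.2e-05). Without 1 library it ranged from -1.845 to -1.31, and per tube it was -0.60, not past the threshold (adjusted p = 0.11). The immediate early genes, which like Per1 respond within minutes to stimuli and to tissue dissociation, were lower in the same libraries, with 8 of 8 past the threshold, beside 26.3% of all genes tested, and 2345, 2370, 1376 and 1739 UMIs in sum. Of 8 glucocorticoid-responsive genes, 7 were lower. Per tube, 6 immediate early genes were lower and 1 was higher, and 4 glucocorticoid-responsive genes were lower and 1 was higher, beside 331 lower and 4481 higher of all 7228 genes tested. Their part in the level of Per1 was not tested.

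Per2 (ENSMUSG00000055866, chromosome 1 from 91415982 to 91459324, minus strand) was counted 11, 13, 20 and 30 times. Its normalized level was 53.4 ± 7.79 CPM in sham and 56.4 ± 6.19 after overload (SD, n = 2 each), and these levels overlapped. The 95% confidence interval of its log2 fold change ran from -0.67 to 0.86, so that a change of either sign within it could not be detected with these libraries. Without sham replicate 1 the estimate of 0.091 became -0.086. Per2 was higher per tube, with log2FC = 1.05 (edgeR adjusted p = 0.044).

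Per3 (ENSMUSG00000028957, chromosome 4 from 151003652 to 151044665, minus strand), the least abundant Period gene in sham, was counted 5, 3, 18 and 17 times. Per3 rose from 17.7 ± 5.78 to 40.6 ± 8.75 CPM (SD, n = 2 each), with log2FC = 1.15 (SE 0.49, edgeR adjusted p = 0.066). Per3 passed the filter on low counts only through the overloaded group, where it was high, so that its call is weak support. It was lost without sham replicate 1 (1.503, adjusted p = 0.15), without sham replicate 2 (0.83, adjusted p = 0.39) and without overloaded replicate 2 (1.42, adjusted p = 0.19), and without overloaded replicate 1 the gene was not tested. It was also lost with DESeq2 (adjusted p = 0.37), with limma-voom (adjusted p = 0.13), with no filter (1.24, adjusted p = 0.11) and with gene-wise offsets that level fold changes along abundance (0.69, adjusted p = 0.30). Per tube, Per3 was higher with log2FC = 2.095 (edgeR adjusted p = 0.0027).

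Because a share of UMIs within a library does not depend on how libraries are scaled, the balance between the Period genes was also read directly, a measure chosen after the counts were seen. Per1 made up 75.8% and 81.4% of the UMIs of the 3 genes in the sham libraries, and 50% and 46.6% in the overloaded libraries. The 95% exact (Clopper-Pearson) intervals, which cover counting error only, were 63.6% to 85.5% and 71.5% to 89.0% in sham, against 38.3% to 61.7% and 35.9% to 57.5% after overload. With 2 libraries a group, the smallest two-sided p of an exact permutation test is 0.333, which was its value here.

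Both Cryptochrome genes, which encode the strongest repressors of the CLOCK and BMAL1 pair, were lower relative to other transcripts. Cry1 (ENSMUSG00000020038, chromosome 10 from 85131700 to 85185064, minus strand) was counted 23, 23, 17 and 28 times. In normalized values it fell from 102 ± 2.88 to 50.5 ± 8.84 CPM (SD, n = 2 each), with log2FC = -0.995 (SE 0.32, edgeR adjusted p = 0.018). The call was lost with DESeq2, where the log2FC was -1.001 (adjusted p = 0.17). Cry2 (ENSMUSG00000068742, chromosome 2 from 92403646 to 92434043, minus strand) was counted 14, 22, 16 and 12 times. Its normalized level went from 80.3 ± 27.4 to 32.95 ± 12.2 CPM (SD, n = 2 each), with log2FC = -1.31 (SE 0.40, edgeR adjusted p = 0.014). Cry2 passed the filter on low counts only through the sham group, where it was high, so that its call is weak support. With no filter its log2FC was -1.23. The call of Cry2 was lost without sham replicate 2 (-0.96, adjusted p = 0.18), without overloaded replicate 2 (-0.89, adjusted p = 0.13) and with DESeq2 (-1.295, adjusted p = 0.13). Per tube the log2 fold change was -0.032 for Cry1 and -0.36 for Cry2, neither past the threshold (adjusted p = 0.95 and 0.49). The share of Cry1 among Cry1 and Cry2 UMIs was 62.2%, 51.1%, 51.5% and 70.0%, with no separation of the groups.

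Neither gene of the repressive second loop passed the threshold. Nr1d1 (ENSMUSG00000020889, chromosome 11 from 98767932 to 98775333, minus strand) was counted 29, 24, 57 and 87 times, with both overloaded libraries above both sham libraries, which held for 72.7% of all genes tested and for 3 of the 9 clock genes (Per2, Per3 and Nr1d1). Its normalized levels did not overlap either, at 117 ± 12.4 CPM in sham and 162 ± 19.8 after overload (SD, n = 2 each). The log2 fold change of 0.47 (95% confidence interval -0.027 to 0.97, adjusted p = 0.12) was just outside the threshold, and it was inside it without overloaded replicate 1 (0.60, adjusted p = 0.088), with upper-quartile factors (0.57, adjusted p = 0.061), with library sizes alone (0.75, adjusted p = 0.015) and per tube (1.44, adjusted p = 0.0017). Nr1d1 and Thra, a thyroid hormone receptor gene, meet tail to tail, and 263 of the last 500 exonic bases of Nr1d1 lie in an exon of Thra on the other strand. Thra was counted 24, 41, 51 and 55 times, and since the strand setting of the counting is not given in the sources used here, reads of the shared stretch cannot be told apart.

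Nr1d2 (ENSMUSG00000021775, chromosome 14 from 18204054 to 18239127, minus strand), the second REV-ERB gene, was counted 48, 41, 44 and 88 times. Its level was 197 ± 16.4 CPM in sham and 146 ± 45.1 after overload (SD, n = 2 each), with the overloaded libraries far apart at 114 and 178. The log2 fold change was -0.41 (95% confidence interval -0.90 to 0.092, edgeR adjusted p = 0.18). It was -0.74 without overloaded replicate 2 but -0.13 without overloaded replicate 1, whereas per tube it was 0.57 (edgeR adjusted p = 0.15). The share of Nr1d1 among the UMIs of both REV-ERB genes was 37.7% and 36.9% in sham and 56.4% and 49.7% after overload. This share was also chosen after the counts were seen, and it did not overlap between the groups (exact permutation test, two-sided p = 0.333, the smallest possible). Its 95% exact intervals, which cover counting error only, did overlap, at 25.3% to 49.8% in sham 2 and 42.1% to 57.4% in overloaded 2.

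Dbp (ENSMUSG00000059824, chromosome 7 from 45705088 to 45710203, plus strand) was counted 0, 0, 1 and 1 times, at or under the floor of 3 counts in both groups, so no fold change was computed. The last 500 exonic bases of Dbp all lie within exons of Sphk2 on the other strand, and Sphk2 itself was counted 12, 3, 14 and 19 times. To see what such an arrangement goes with in these libraries, protein-coding genes of the autosomes and the X chromosome were sorted by their last 500 exonic bases. Genes with fewer exonic bases were left out, as were genes whose tail overlapped an exon of a same-strand or non-coding gene. Of 352 genes whose tail lay wholly in exons of an opposite-strand protein-coding gene, 32.7% had at least 15 UMIs over the 4 libraries, against 50% of 1089 genes with a tail in part in such exons, as for Nr1d1, and 44.2% of 18874 genes with a free tail. Loss of Dbp reads in counting and a low level of Dbp RNA cannot be told apart here.

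The positive arm was set against the other clock genes within each library through 2 shares that do not depend on scaling. Arntl and Clock together made up 37.7% and 34.0% of the UMIs of the 10 clock genes in the sham libraries, and 28.7% and 25.5% in the overloaded libraries, a difference of -8.76 percentage points. The 95% exact intervals of this share overlapped between the groups, at 28.6% to 39.7% in sham 2 and 23.6% to 34.2% in overloaded 1. Arntl as a share of the UMIs of Arntl, Nr1d1, Nr1d2 and Dbp was 37.9% and 38.1% in sham and 23.3% and 14.98% after overload. The 95% exact (Clopper-Pearson) intervals of the share of Arntl were 29.3% to 47.0% and 28.8% to 48.1% in sham, against 16.4% to 31.4% and 10.4% to 20.6% after overload. The difference of -18.9 points was larger than the spread between replicates (SD 0.136 in sham and 5.89 after overload, n = 2 each), and the exact permutation test gave the smallest two-sided p it can, 0.333.

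**Figure D3:**
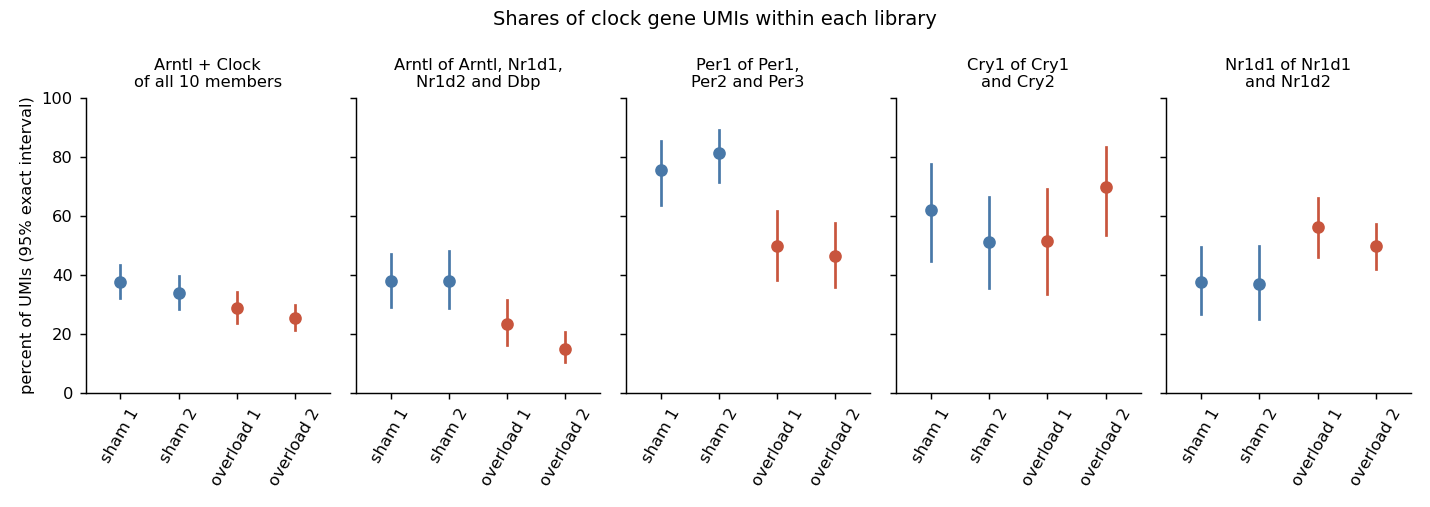
Shares of clock gene UMIs within each library (percent, y axis from 0 to 100), with 95% exact binomial intervals that cover counting error only and 1 point per library. The shares of Arntl against the REV-ERB genes and Dbp, and of Per1 among the Period genes, lie lower in both overloaded libraries, the share of Nr1d1 lies higher, and that of Cry1 overlaps.

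The order of the clock genes by level differed between the groups. In sham, mean normalized levels ran from Clock (273 CPM) through Per1 (267), Nr1d2 (197), Arntl (193), Nr1d1 (117), Cry1 (102), Cry2 (80.3), Per2 (53.4) and Per3 (17.7) to Dbp, which had no count. Neighbours closer than the larger of their SDs were Clock and Per1, Per1 and Nr1d2, Nr1d2 and Arntl, Cry1 and Cry2, and Cry2 and Per2. After overload the order ran from Nr1d1 (162 CPM) through Nr1d2 (146), Clock (144), Per1 (90.9), Arntl (71.7), Per2 (56.4), Cry1 (50.5), Per3 (40.6) and Cry2 (32.95) to Dbp (2.31). Here the neighbours closer than the larger SD were Nr1d1 and Nr1d2, Nr1d2 and Clock, Per2 and Cry1, and Per3 and Cry2. Clock had the most UMIs of the members over the 4 libraries. Among 1448 tested genes with at least as many UMIs, Fnip1, Ankrd17 and Zeb2 were closest to Clock in centred log2 levels. Their Euclidean distances over the 4 libraries were 0.021, 0.042 and 0.062. Such small distances are easily found among so many genes in 4 libraries, and shared regulation was not tested.

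The sign of Clock, Nr1d2 and Per2 changed with the scaling. Over all genes tested, the median log2 fold change was 0.051 with TMM, 0.33 with library sizes alone and 1.01 per tube. Per tube, 3 clock genes were called, all higher (Per2, Per3 and Nr1d1), beside 66.6% of all genes tested, 4481 higher and 331 lower. With library sizes alone 2 were higher (Per3 and Nr1d1) and 5 lower, beside 56.0% of all genes, and with offsets for abundance the same 5 were lower, beside 47.6%. DESeq2 called 3 clock genes (Per1, Arntl and Clock, all lower), beside 21.1% of the 10348 genes with an adjusted p. Of all genes tested, 52.0% were called with DESeq2 size factors in edgeR, 52.0% with upper-quartile factors, 50.9% with limma-voom, 50.8% with a replicate block, 50.1% with thinned counts, 51.2% and 22.0% with the other filters and 44.1% at a threshold of 0.05. Without 1 library the share was 38.3% and 35.8% for sham 1 and 2, and 45.8% and 40.0% for overloaded 1 and 2. TMM, library sizes alone and UMIs per tube differ by a constant shift of all genes, so the place of a gene relative to the all-gene median is nearly fixed across these 3. With the offsets, which are not a constant shift, Arntl, Clock, Per1, Cry1 and Cry2 also lay below the median (0.021) and Per3 and Nr1d1 above it, whereas Per2 moved from above to below.

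**Figure D4:**
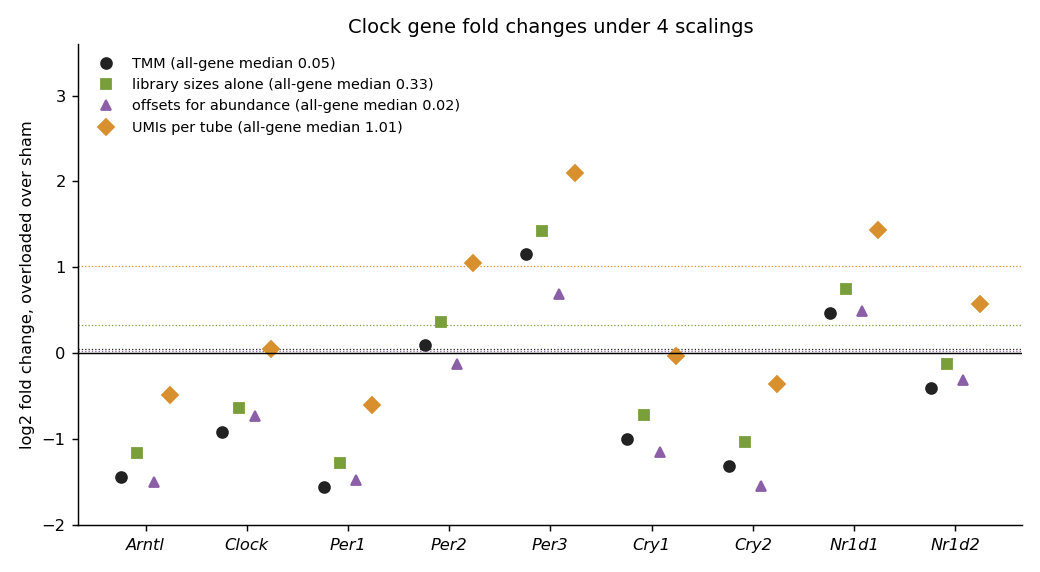
Log2 fold change of each tested clock gene (y axis, overloaded over sham) under 4 scalings, with a dotted line at the median over all genes for each scaling. All scalings but the offsets differ by a constant shift, which takes Clock from -0.92 with TMM to 0.046 per tube, and with the offsets Per2 lies at -0.12.

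The remaining genes of the pathway were read from 3 lists with 29 genes, of which 28 had a row and 19 were tested. Of these 19, 10 were lower past the threshold and 1 was higher, beside 26.3% lower and 25.8% higher over all genes tested, and their median log2 fold change was -0.69. Per tube 4 of the 19 were higher and 2 lower, beside 4481 higher and 331 lower of all 7228 genes tested. Among other clock transcription factors and repressors, 4 of 6 tested genes were lower and 1 was higher. Npas2, which can replace Clock as the partner of BMAL1, was counted 19, 18, 9 and 2 times. Both overloaded libraries were below both sham libraries and also far from each other. Npas2 fell by 2.67 on the log2 scale (edgeR adjusted p = 4.3e-04), by 1.75 without overloaded replicate 2, and per tube it was lower as well (-1.73, adjusted p = 0.012). Without overloaded replicate 1 its log2 fold change was -4.19. Npas2 passed the filter on low counts only through the sham group, where it was high, and with no filter its log2FC was -2.58.

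Rora, which encodes the ROR receptor that activates Arntl, was counted 134, 149, 88 and 121 times. It fell from 629 ± 64.8 to 237 ± 11.5 CPM (SD, n = 2 each), with log2FC = -1.40 (edgeR adjusted p = 6.3e-06). It was lower per tube too (-0.44, adjusted p = 0.080), and with offsets for abundance, where its change was smaller (-0.76, adjusted p = 8.8e-04). Nfil3, a repressor at D-boxes, and Bhlhe40, a repressor at E-boxes, fell by 1.06 and 0.88 on the log2 scale, and per tube their values were -0.094 and 0.087, not past the threshold. Tef, a D-box activator related to Dbp, was at 158 ± 26.4 CPM in sham and 146 ± 3.13 after overload (SD, n = 2 each). It did not pass the threshold (adjusted p = 0.71), but per tube it was higher (0.85, adjusted p = 0.027).

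Bhlhe41, the paralog of Bhlhe40 and likewise a repressor at E-boxes, went the other way. It was counted 16, 5, 113 and 122 times, and both overloaded libraries were far above both sham libraries. Its level rose from 46.1 ± 33.2 to 270 ± 33.1 CPM (SD, n = 2 each), with log2FC = 2.52 (95% interval 1.86 to 3.18, edgeR adjusted p = 8.9e-06). It was 1.91 without sham replicate 2 and 3.52 without sham replicate 1, and it stayed past the threshold per tube (3.47). Bhlhe41 passed the filter on low counts only through the overloaded group, where it was high, and with no filter its log2FC was 2.60. Cipc, which encodes an inhibitor of CLOCK, was left out of the test with 2, 1, 14 and 14 UMIs, and the ratio of its summed counts after scaling was 4.79 (95% exact binomial interval 1.48 to 24.6, counting error only). For Ciart, another repressor, with 0, 1, 4 and 4 UMIs, the ratio was 4.10 and its interval of 0.550 to 182 included no change. Hlf, a D-box activator, was counted 5, 4, 3 and 1 times and was also not tested.

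Among the enzymes that set the lifetime of clock proteins, 4 of 7 tested genes were lower, beside 26.3% of all genes tested. These were the casein kinases Csnk1a1, Csnk1d and Csnk1e, which phosphorylate Period proteins, and the deubiquitinase Usp2. Csnk1d went from 664 ± 9.53 to 280 ± 5.58 CPM (SD, n = 2 each), with log2FC = -1.25 (edgeR adjusted p = 1.4e-05), and Usp2 from 340 ± 31.6 to 162 ± 0.565 (SD, n = 2 each), with log2FC = -1.07 (edgeR adjusted p = 2.0e-04). None of the 4 was past the threshold per tube, at -0.28 for Csnk1d, -0.11 for Usp2, -0.0083 for Csnk1a1 and 0.20 for Csnk1e. Csnk1a1 was not past it with offsets for abundance (-0.16, adjusted p = 0.37). With these offsets Csnk1d and Csnk1e were past it with smaller changes (-0.56 and -0.46, adjusted p = 0.0061 and 0.052). Gsk3b, a kinase of several clock proteins, had a log2 fold change of 0.0010 (95% confidence interval -0.40 to 0.40) and was higher per tube (0.96, adjusted p = 0.0016) and with offsets for abundance (0.53, adjusted p = 0.021).

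Of the output genes that cycle in many tissues, 2 of 6 tested were lower, beside 26.3% of all genes tested. Noct, a clock-controlled phosphatase gene, went from 481 ± 46.1 to 297 ± 26.7 CPM (SD, n = 2 each), with log2FC = -0.69 (edgeR adjusted p = 0.0035). Cdkn1a, which encodes a cyclin-dependent kinase inhibitor and has many regulators besides the clock, went from 1682 ± 15.3 to 1031 ± 1.05 CPM (SD, n = 2 each), with log2FC = -0.71 (edgeR adjusted p = 0.0014), but with offsets for abundance it was higher (0.44, adjusted p = 0.0099). Noct was not past the threshold with these offsets (-0.092, adjusted p = 0.68). Per tube both had the other sign and did not pass it, with 0.28 for Noct (adjusted p = 0.28) and 0.26 for Cdkn1a (adjusted p = 0.12). Wee1, a mitotic kinase gene driven through E-boxes, was counted 13, 15, 22 and 27 times and did not pass it (adjusted p = 0.75). Neither did Tsc22d3 (adjusted p = 0.23), Nampt (adjusted p = 0.13) or Clpx (adjusted p = 0.44). Per tube, however, Clpx was higher (1.36, adjusted p = 0.017), beside a median of 1.01 over all genes tested. Clpx passed the filter on low counts only through the overloaded group, where its counts were high, so that this call is weak support. With offsets for abundance Nampt was lower (-0.55, adjusted p = 0.087). The log2FC of Tsc22d3 was -0.37, with -0.67 without overloaded replicate 1 and -0.023 without overloaded replicate 2.

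**Figure D5:**
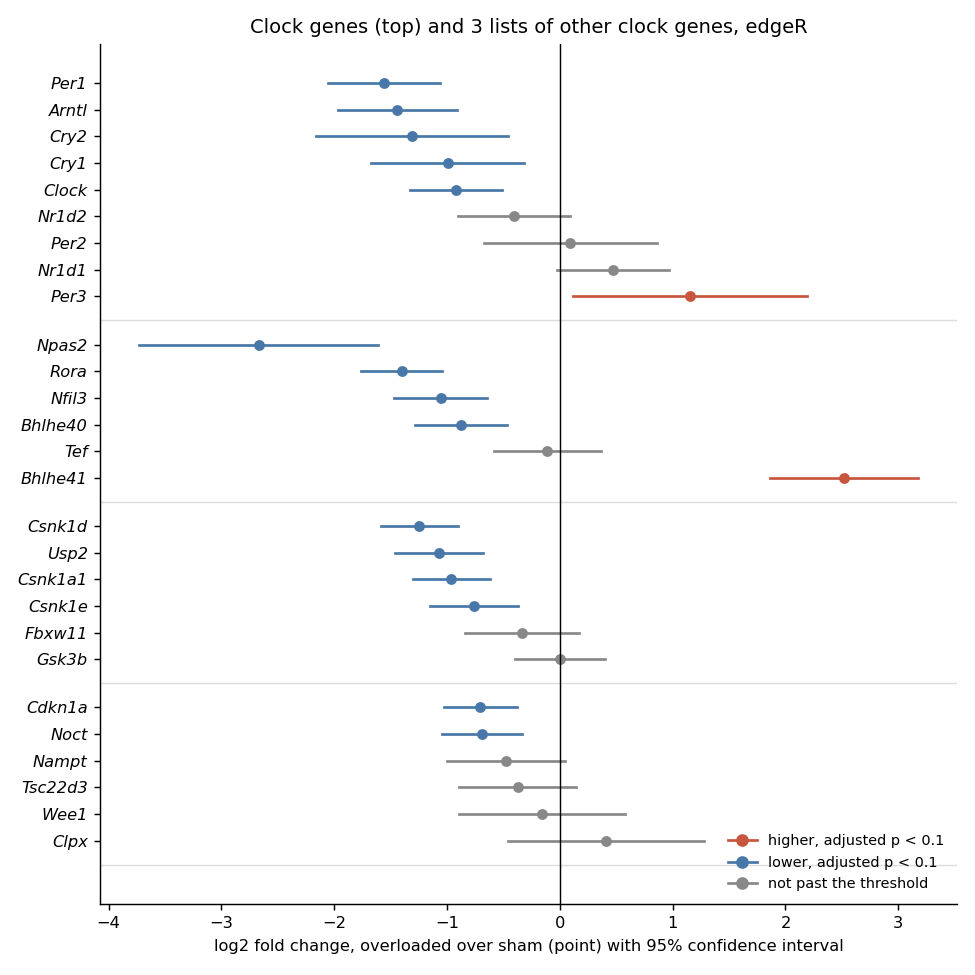
Log2 fold change of 9 clock genes and of the other clock genes reported here, with 1 line per gene. The x axis gives overloaded over sham with TMM scaling. The 95% confidence intervals were approximated from the log2FC and F statistic of edgeR's quasi-likelihood test. Bhlhe41 (2.52) and Npas2 (-2.67) are the ends of the range, each having passed the filter on low counts only through the group where it was high, and Gsk3b (0.0010) lies at 0.

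Markers of other cell types were counted in the same libraries. The 8 leukocyte markers had 2, 5, 63 and 137 UMIs in sum, with Lyz2 the most abundant (55 over the 4 libraries) and 6 of the 8 at 0 in both sham libraries. The 6 endothelial markers had 9, 4, 39 and 35 UMIs, led by Cdh5, with Egfl7 at 0 in sham. The 6 mural markers had 177, 153, 458 and 674, led by Acta2, with Myh11 at 0 in sham. The 6 myofiber markers with a row had 325, 175, 1076 and 1273, led by Acta1, with Myh1 at 0 in sham. The 6 fibroblast markers had 938, 867, 1199 and 1318, led by Col3a1, with Pdgfra at 0 in sham, and the 4 Schwann cell markers with a row had 2, 2, 8 and 4, with Mbp at 0 in sham. The 6 cell cycle genes had 43, 43, 434 and 537. Each of these sums was higher in both overloaded libraries, although per 100000 UMIs of the library the fibroblast sum was lower (348, 333, 309 and 273). The UMIs of Per2, Per3, Nr1d1 and Bhlhe41 were higher in the same libraries, as were those of 72.7% of all genes tested, and the part of other cells or of cycling cells in clock gene levels was not tested.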

How the data were processed

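The authors extracted barcodes and UMIs with UMI-tools (version 1.0.0), aligned the reads to GRCm38 with HISAT2 (version 2.1.0), assigned them to genes with featureCounts (version 1.6.4) and collapsed duplicate UMIs per gene. They deposited the resulting counts of UMIs without normalization. The annotation release and strand setting are not given in the sources used here. All 19353 gene identifiers were found in GENCODE M21 (GRCm38).

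From these counts, genes were filtered with filterByExpr (minimum count 10, minimum total 15), scaled by TMM (factors 0.909, 0.908, 1.08 and 1.12) and tested with glmQLFit and glmQLFTest of edgeR (version 4.0.16, R version 4.3.3), with Benjamini-Hochberg adjustment over 7228 genes. The threshold of 0.1 is that of the study's methods, which used DESeq2. CPM are counts per 1000000 of the tested genes' UMIs times the TMM factor. The alternatives were DESeq2 (version 1.42.0), limma-voom (limma version 3.58.1), other scalings, filters and a stricter threshold, thinned counts, a replicate block and each library left out. Shares and intervals used Python (version 3.11.15) with scipy (version 1.17.1).

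All 10 clock genes were named with their counts. Of the other lists, genes past the threshold could be named, and up to 4 others per list by highest total UMIs. The members and lists were chosen with earlier results of these data known. Some genes of the lists are counted in their sums but not reported here by name.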

Additional observations from a re-analysis of the deposited data

How the results depend on the processing

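Arntl, Clock and Per1 were lower past the threshold under every alternative tried except UMIs per tube without scaling, where Clock was at 0.046 and Nr1d2 at 0.57 instead of below 0. Per2 had a log2 fold change of -0.12 with offsets for abundance and of -0.086 to 0.21 with each library left out. The median of the tested clock genes was 0.046 per tube and -0.64 with library sizes alone, against -0.92. The number of clock genes called was 6, and it was 3 with DESeq2 (all lower) and 3 per tube (all higher). DESeq2 called 2182 genes in all, 967 higher and 1215 lower, and per tube 6 of the other clock genes (4 higher and 2 lower) were called instead of 11. With 1 library left out, 4 to 6 clock genes, 11 to 13 other clock genes and 2849 to 3388 genes in all were called, where the lone sample of a group was taken to vary like the other group. The median then ranged from -0.97 to -0.84. The difference in the share of Arntl ranged from -23.0 to -14.7 points, and that of Arntl and Clock from -10.6 to -6.90. With the replicate number as a block, 6 clock genes and 3670 genes in all were called, the median was -0.92, and no clock gene's call changed. The labels do not say that a number marks a shared mouse, and replicate differences of the groups correlated at -0.035 across genes. The study calls the sham muscle contralateral in other experiments, so tubes of the sham and overloaded groups may share mice, which is not stated for these libraries. Depth limited the precision of Per3, with 5 and 3 UMIs in sham.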
